A study of Homo sapiens with 4 samples.

Results

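Amino acids cross the plasma membrane through carriers of the solute carrier (SLC) families. Some of these carriers exchange amino acids across the membrane, while others use the sodium gradient to bring them in. SLC7A5, SLC7A6 and SLC7A11 are light chains that reach the cell surface bound to the glycoprotein SLC3A2 (CD98). Many of these genes are known to be induced through the transcription factor ATF4 when amino acids run short, and proliferating tumour cells use them for leucine, glutamine and cystine supply. The 10 transporter genes described here, SLC7A5, SLC3A2, SLC7A11, SLC1A5, SLC7A1, SLC38A1, SLC38A2, SLC1A4, SLC43A1 and SLC7A6, were chosen by gene name. Each name stood on a single row of the deposited table of 34826 genes.

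The samples were HCT116-Ki-67-mAC-AID cells, a human colorectal cancer line whose Ki-67, a protein found in the nuclei of dividing cells, carries an auxin-inducible degron tag. The IAA group comprised 2 samples kept for 24 h in indole acetic acid (IAA) at 0.5 mM, which triggers destruction of the tagged protein. The control group comprised 2 samples of the same tagged cells without treatment. Each sample was collected from 3 dishes grown for 2 days, and mRNA captured on oligo-dT beads was sequenced as paired reads of 150 nt. No IAA-treated library of untagged cells was analysed here, so the effects of IAA itself and of Ki-67 removal cannot be told apart. The labels do not say whether the tagged line is a clone.

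Values are TPM, the reads of a gene divided by its length and scaled to the same total in every library. For the transporter genes, this length counts all exon bases over the 2 to 23 annotated transcripts of a gene. It is not the length of the mRNA present, so levels set side by side between genes are approximate. The same length was used for a gene in every library. The reads recovered from TPM and gene length came to 38733981 and 40920854 in IAA replicates 1 and 2, and to 38953166 and 49448043 in control replicates 1 and 2. Epithelial markers fitted the labelled line, with KRT8 at 1018 to 1075 TPM and EPCAM at 466 to 480 TPM, while VIL1 stayed at or below 0.255 TPM. Summed leukocyte markers stayed at or below 0.844 TPM and summed endothelial markers at or below 0.881 TPM. Summed fibroblast markers came to 13.7 to 15.2 TPM in every library, of which COL1A1 made up 13.3 to 14.8 TPM, with overlap between the groups. IAA replicate 1 stood apart in 2 respects. Summed squamous epithelium markers reached 32.4 TPM there, against 4.62 TPM in IAA replicate 2 and 5.06 and 5.65 TPM in control replicates 1 and 2. Its difference from IAA replicate 2 also varied with the GC content of the genes, with the values given beside the replicate differences of the transporters.

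Promoter sequences from RefSeq (GRCh38.p14) were scanned because the values of the genes lay in the same direction. The windows run from 250 bases before to 50 bases after each annotated start, and 16 windows matched 9 of the 10 genes, all but SLC7A11. The motif TGATGNAA, read on both strands, is a core of the composite element bound by ATF4 with C/EBP factors. It was found in 5 of these 16 windows and in 3.62% of all 35116 windows. By gene, 5 of the 9 held it, against 4.46% of all 27305 genes with windows. The motif CACGTG is the E-box bound by MYC and related factors and is identical on both strands. It was found in 3 of the 16 windows and in 7.26% of all windows. By gene, 3 of the 9 held it, against 8.77% of all genes with windows. A match is a description of the letters and not a shown binding site, and a window without a match says nothing about the factor. Many of these genes are known to be induced through ATF4, and MYC is a known regulator of SLC7A5 and SLC1A5. The counts thus describe which genes are in the list and not what IAA did. A link of the matches to the fold changes was not tested.

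The TGATGNAA matches are printed with up to 10 bases on either side, in the direction of the gene, with the match in capitals. In SLC1A4 and SLC3A2 the match lies on the opposite strand, so its reverse complement is in capitals.
SLC1A4, chr2:64989382-64989409, plus strand, first base 7 bases before the start: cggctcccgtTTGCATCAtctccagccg
SLC3A2, chr11:62881726-62881748, plus strand, first base at position 38 of the transcript: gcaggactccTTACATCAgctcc
SLC38A1, chr12:46266503-46266530, minus strand, first base 4 bases before the start: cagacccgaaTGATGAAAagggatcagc
SLC7A1, chr13:29595664-29595691, minus strand, first base at position 8 of the transcript: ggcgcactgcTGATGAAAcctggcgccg
SLC1A5, chr19:46784894-46784921, minus strand, first base 97 bases before the start: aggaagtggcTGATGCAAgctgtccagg
The SLC7A1 window belongs to the outermost start of its gene, and the other 4 belong to RefSeq starts that lie inside the GENCODE gene.

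The 250 bases before the start are shown for SLC7A5 and SLC43A1, the pair with the lowest fold changes below, with CACGTG in capitals. Another match, in SLC1A5, lay before a RefSeq start inside the GENCODE gene and is not printed. The SLC43A1 start also lies inside its GENCODE gene, while the SLC7A5 start does not.
SLC7A5, chr16:87869508-87869757, minus strand: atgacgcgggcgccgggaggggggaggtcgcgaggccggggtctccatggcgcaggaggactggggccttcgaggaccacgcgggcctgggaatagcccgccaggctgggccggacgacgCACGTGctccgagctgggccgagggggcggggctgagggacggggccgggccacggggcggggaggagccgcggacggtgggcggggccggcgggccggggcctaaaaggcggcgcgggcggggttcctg
SLC43A1, chr11:57515703-57515952, minus strand: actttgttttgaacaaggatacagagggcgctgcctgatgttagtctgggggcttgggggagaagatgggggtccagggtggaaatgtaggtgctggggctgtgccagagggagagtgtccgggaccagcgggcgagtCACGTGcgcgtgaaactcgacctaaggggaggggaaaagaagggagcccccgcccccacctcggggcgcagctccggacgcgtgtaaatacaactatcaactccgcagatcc
The upstream sequence of SLC7A5 is 79.6% G and C and that of SLC43A1 60.8%. Neither gene had a TGATGNAA match in its windows.

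All 10 transporter genes had lower mean TPM in IAA than in control, with differences from -1.57% for SLC7A6 to -32.3% for SLC43A1, but no gene passed the test. By limma on log2(TPM + 1) over 17896 genes, with Benjamini-Hochberg adjustment over all of them, 0 of the 10 were called lower and 0 higher, as against 0% of all genes in either direction. The adjusted p was 0.902 for SLC43A1 and 0.999 for each of the other 9. At an unadjusted p under 0.05, SLC43A1, SLC7A5, SLC3A2 and SLC7A11 were lower in IAA, 4 of 10, against 2.61% of all genes tested, and 0 were higher, against 1.54%. Both IAA libraries lay below both controls for 8 of 10, against 17.7% of all genes tested. Among these, IAA replicate 2 was within counting error of control replicate 2 for SLC1A5 and SLC1A4. Fold changes were negative for 10 of 10, against 55.5% of all genes, with a median log2 fold change of -0.26 over the 10 and -0.02 over all genes. The same libraries gave all of these counts, and genes are not independent replicates. The 10 genes were also chosen with earlier results of these data known, so the shares over all genes are no blind comparison. In bulk RNA fewer transporting cells and less transporter mRNA per cell cannot be told apart.

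The order of the levels was the same in both groups. In IAA, SLC38A2 was highest at 547 ± 35.4 TPM, followed by SLC7A5, SLC1A5, SLC3A2, SLC38A1, SLC7A1, SLC7A11 and SLC7A6, and SLC43A1 and SLC1A4 were lowest. Neighbours in that order did not overlap between libraries of a group, except SLC43A1 and SLC1A4 in IAA. SLC38A2 lay above 99.0% of the genes tested and SLC7A5 above 97.8%, while SLC43A1 and SLC1A4 lay above 35.4% and 30.6%. SLC38A2 alone held 44.7% and 40.1% of the summed TPM of the 10 genes in IAA replicates 1 and 2, against 39.9% and 40.9% in control replicates 1 and 2.

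**Figure D1:**
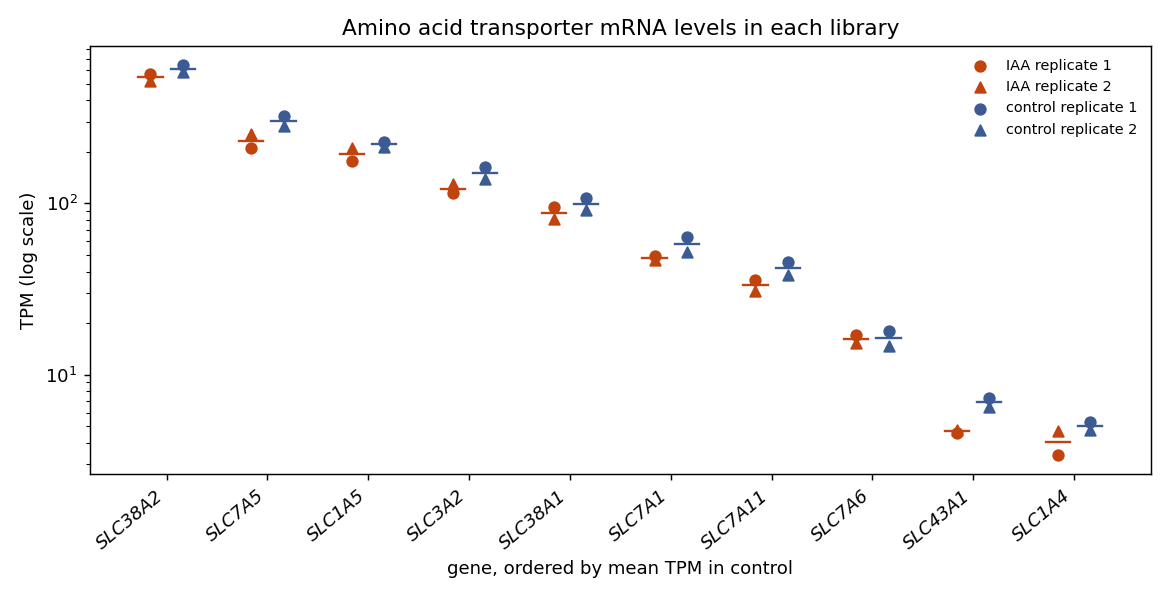
TPM on a log scale of the 10 transporter genes in each library, with IAA in orange and control in blue, circles for replicate 1, triangles for replicate 2 and a short line at the mean of each group. The genes span from 3.40 TPM (SLC1A4, IAA replicate 1) to 640.4 TPM (SLC38A2, control replicate 1), and for all but SLC38A1 and SLC7A6 both IAA libraries lie below both controls.

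The leucine exchanger SLC7A5 and its heavy chain SLC3A2 were lower together in both IAA libraries. SLC7A5 (LAT1, ENSG00000103257.8, minus strand of GRCh38 chromosome 16 from 87830023 to 87869488), which takes up large neutral amino acids in exchange for others, had 212 and 254 TPM in IAA replicates 1 and 2, against 326 and 283 TPM in control replicates 1 and 2. The means were 233 ± 29.9 TPM in IAA and 304 ± 30.1 TPM in control (SD, n = 2 each), without overlap. The log2 fold change came to -0.39 ± 0.12 (SE, 95% interval from -0.67 to -0.10), and limma's adjusted p was 0.999. SLC3A2 (ENSG00000168003.16, plus strand of chromosome 11 from 62856102 to 62888875), which carries the light chains to the surface, had 114 and 130.1 TPM in IAA replicates 1 and 2, against 162 and 139 TPM in control replicates 1 and 2. Its groups did not overlap either, and the log2 fold change came to -0.30 ± 0.11 (SE, 95% interval from -0.56 to -0.04). The lower control of each gene, replicate 2, lay closer to IAA replicate 2 than to control replicate 1.

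The ratio of light to heavy chain mRNA differed less than either gene. The ratio of SLC7A5 to SLC3A2 TPM was 1.85 and 1.95 in IAA replicates 1 and 2, against 2.01 and 2.03 in control replicates 1 and 2. Both IAA libraries lay below both controls, and the mean ratio in IAA was 0.943 times that in control. In IAA replicate 2 the counting error (95% exact Poisson) was 1.58% either way for SLC7A5 and 2.11% for SLC3A2. The counting error of the ratio was not computed, so the narrow gap between the groups may lie within it. With 2 against 2 libraries an exact permutation test has 0.333 as its smallest p, and none was made.

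SLC7A11 (xCT, ENSG00000151012.13, minus strand of chromosome 4 from 138164097 to 138242349), which imports cystine in exchange for glutamate and so feeds glutathione synthesis, had 35.8 and 30.7 TPM in IAA replicates 1 and 2, against 45.6 and 38.0 TPM in control replicates 1 and 2. The groups did not overlap, and here IAA replicate 2 was the lowest library. The log2 fold change came to -0.32 ± 0.12 (SE, 95% interval from -0.63 to -0.02). SLC7A6 (ENSG00000103064.14, plus strand of chromosome 16 from 68264516 to 68301823), which exchanges cationic for neutral amino acids, had 17.0 and 15.3 TPM in IAA replicates 1 and 2, against 18.1 and 14.8 TPM in control replicates 1 and 2. Here the IAA libraries lay between the controls, and the log2 fold change of -0.02 had a 95% interval from -0.33 to 0.30. Its sign turned under 5 of 16 other settings, among them median-of-ratios scaling, where it was 0.000723. SLC7A6 shares 44.4% of its exon bases with SLC7A6OS on the opposite strand (14.4 TPM on average), and since the use of strand in counting is not given in the sources used here, their reads cannot be told apart.

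The SLC1 exchangers were lower mainly in IAA replicate 1. SLC1A5 (ASCT2, ENSG00000105281.12, minus strand of chromosome 19 from 46774883 to 46788594), a glutamine exchanger, had 178 and 212 TPM in IAA replicates 1 and 2, against 229 and 214 TPM in control replicates 1 and 2. IAA replicate 2 lay just below control replicate 2, so the groups did not overlap. That margin was within counting error, since the 95% exact Poisson interval of IAA replicate 2 ran from 207 to 216 TPM. The log2 fold change came to -0.19 ± 0.10 (SE), and -0.07 without IAA replicate 1. An antisense gene, AC008622.2, shares 23.4% of the exon bases of SLC1A5 at an average of 14.8 TPM, and its reads cannot be told apart from those of SLC1A5. SLC1A4 (ASCT1, ENSG00000115902.10, plus strand of chromosome 2 from 64988477 to 65023865), which exchanges alanine, serine and cysteine, had 3.40 and 4.70 TPM in IAA replicates 1 and 2, against 5.30 and 4.75 TPM in control replicates 1 and 2. It was counted with 280.0 and 418 reads in the IAA libraries and with 431 and 511 reads in the controls. The log2 fold change came to -0.27 ± 0.18 (SE) and -0.08 without IAA replicate 1, and the IAA replicate 2 value was within counting error of control replicate 2.

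The arginine and lysine importer SLC7A1 (CAT1, ENSG00000139514.12, minus strand of chromosome 13 from 29509410 to 29595688) had 49.0 and 46.8 TPM in IAA replicates 1 and 2, against 63.7 and 51.9 TPM in control replicates 1 and 2. Here the IAA replicates were close to each other (47.9 ± 1.55 TPM) and the controls spread (57.8 ± 8.34 TPM, SD, n = 2 each). The log2 fold change came to -0.26 ± 0.11 (SE), and its 95% interval reached 0.02. Without control replicate 1 it was -0.11 and without control replicate 2 it was -0.40.

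SLC38A2 and SLC38A1, sodium-coupled importers of glutamine and other small neutral amino acids, had the smallest differences after SLC7A6. SLC38A2 (SNAT2, ENSG00000134294.13, minus strand of chromosome 12 from 46358189 to 46372867) had 572 and 522 TPM in IAA replicates 1 and 2, against 640.4 and 583 TPM in control replicates 1 and 2. The groups did not overlap, with IAA replicate 1 just under control replicate 2, and the log2 fold change came to -0.16 ± 0.08 (SE). SLC38A1 (SNAT1, ENSG00000111371.15, minus strand of chromosome 12 from 46183063 to 46270017) had 95.4 and 80.7 TPM in IAA replicates 1 and 2, against 108 and 91.0 TPM in control replicates 1 and 2. Its groups overlapped, since IAA replicate 1 exceeded control replicate 2, and the log2 fold change came to -0.18 ± 0.12 (SE). The ratio of SLC38A2 to SLC38A1 TPM was 6.24 ± 0.333 in IAA and 6.17 ± 0.348 in control (SD, n = 2 each), with overlap.

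SLC43A1 (LAT3, ENSG00000149150.8, minus strand of chromosome 11 from 57484534 to 57515786), a facilitative carrier of large neutral amino acids, had the lowest fold change of the 10. It had 4.55 and 4.75 TPM in IAA replicates 1 and 2, against 7.27 and 6.48 TPM in control replicates 1 and 2. The IAA libraries were close to each other and far below both controls. The log2 fold change came to -0.48 ± 0.13 (SE, 95% interval from -0.80 to -0.15, limma adjusted p = 0.902). It was counted with 191 and 215 reads in the IAA libraries and with 301 and 355 reads in the controls. The 95% exact Poisson interval of IAA replicate 1, which covers counting error only, ran from 3.93 to 5.25 TPM and stayed below the control values.

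**Figure D2:**
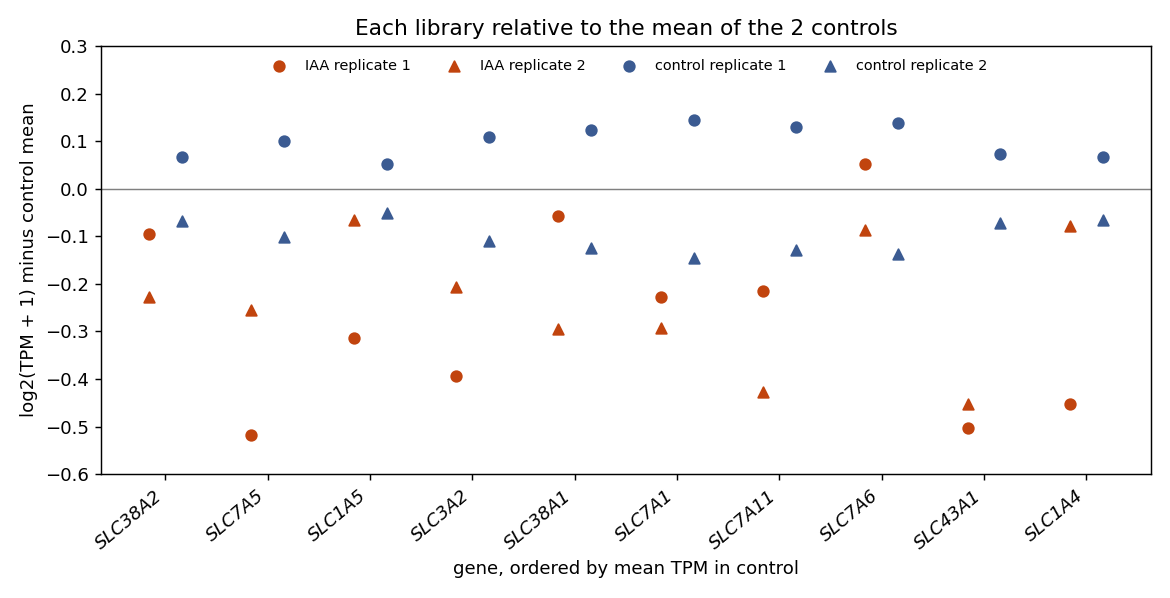
log2(TPM + 1) of each library minus the mean of the 2 controls for the 10 transporter genes, with IAA in orange and control in blue, circles for replicate 1 and triangles for replicate 2. SLC43A1 shows the closest pair of IAA libraries (-0.50 and -0.45), while SLC7A5, SLC1A5, SLC3A2 and SLC1A4 are lower in IAA replicate 1 and SLC38A1, SLC38A2, SLC7A11 and SLC7A1 are lower in IAA replicate 2.

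Summed over the 10 genes, TPM came to 1281 and 1301 in IAA replicates 1 and 2, against 1606 and 1426 in control replicates 1 and 2. The IAA sums were close to each other and below both controls, and the IAA mean was 0.852 times the control mean. Single genes differed between the IAA replicates in opposite directions. SLC7A5 had 212 TPM in replicate 1 and 254 TPM in replicate 2, while SLC38A2 had 572 and 522 TPM. The close sums thus do not show that the IAA replicates agreed gene by gene. Leaving out a library gave 0.804 to 0.905. The spread between the controls (1516 ± 127 TPM) exceeded that between the IAA libraries (1291 ± 13.8 TPM, SD, n = 2 each).

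The replicates of each group differed in a patterned way among the 10 genes. Control replicate 1 exceeded control replicate 2 for 10 of 10, against 70.9% of all genes tested. IAA replicate 1 exceeded IAA replicate 2 for 5 of 10, against 59% of all genes tested. These were SLC38A1, SLC7A11, SLC7A6, SLC38A2 and SLC7A1, with log2 differences of 0.06 to 0.24. IAA replicate 1 lay below IAA replicate 2 for SLC1A4, SLC7A5, SLC1A5, SLC3A2 and SLC43A1, with log2 differences of -0.37 to -0.05. The transcripts of the 5 genes higher in IAA replicate 1 have 35.9% to 53.3% G and C. The lengths of these genes, counted over all exon bases, are 6602 to 10015 bases. For the 5 genes lower there, the values are 50.4% to 60.4% and 3332 to 6939 bases. Over all genes tested, the median difference of IAA replicate 1 minus 2 was 0.19 in the lowest of 5 equal groups by GC content and -0.09 in the highest. The median between the controls, replicate 1 minus 2, lay between 0.07 and 0.08 in all 5 groups. By gene length, that control median was 0.01 in the shortest and 0.13 in the longest of 5 equal groups, and the transporter genes fall in the upper 3 of these groups. The median of IAA replicate 1 minus 2 was 0.17 in the shortest group, -0.04 in the next and 0.12 in the longest.

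With the trends of GC content and gene length removed from each library, 7 of the 10 genes had an unadjusted p under 0.05 in the lower direction, against 3.21% of all genes in that fit, and 0 were called. The median log2 fold change was then -0.22. SLC7A11 stood at -0.36 with an adjusted p of 0.754 and SLC7A5 at -0.32 with an adjusted p of 0.764. The part of the squamous markers of IAA replicate 1 in these results was not tested, and without that library all 10 fold changes were negative with a median of -0.24.

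**Figure D3:**
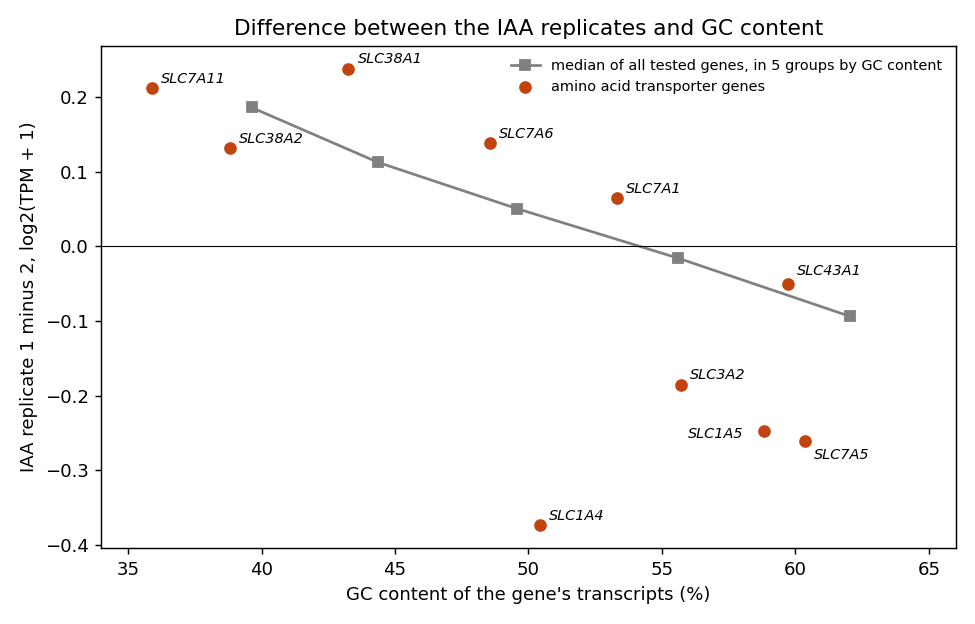
Difference between IAA replicates 1 and 2 in log2(TPM + 1), plotted against the GC content of the transcripts in percent, for the 10 transporter genes (orange points) and as medians of all tested genes in 5 equal groups by GC content (grey squares). The grey line runs from 0.19 to -0.09, and the genes at or above 55.7% GC lie below 0.

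Leaving out libraries changed the counts. At an unadjusted p under 0.05 there were 7 of the 10 genes without IAA replicate 1 (against 4.74% of all genes, lower), 5 without IAA replicate 2 (7.07%), 0 without control replicate 1 (0.866%) and 5 without control replicate 2 (1.53%). After adjustment over all genes, 0 were called without IAA replicate 1 (1.23% of all genes lower). SLC7A5 (limma adjusted p = 0.000460), SLC3A2 (0.0145) and SLC1A5 (0.0335) were called lower without IAA replicate 2, where 2.37% of all genes were, in a fit that assumes the lone IAA library to vary like the controls. With protein-coding genes alone SLC7A5 was called lower (limma adjusted p = 0.0114, 0.201% of genes), in a fit where every gene took the variance of the trend. By voom on recovered reads 0 of the 10 were called (0% of all genes lower), and 5 were lower at an unadjusted p under 0.05, against 2.29% of all genes in that fit.

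Other amino acid transporter genes had a median near that of all genes. From a list of 34 further transporters, 30 were in the table and 16 were tested, with 0 called in either direction. Of these 16, 11 had negative and 5 positive fold changes, with a median of -0.03, and 55.5% of all genes tested were negative. Both IAA libraries lay below both controls for 4 of the 16, against 17.7% of all genes tested. They lay above both controls for 2, against 11.8%. None of the 16 had an unadjusted p under 0.05. SLC6A9, a glycine transporter, had 4.34 and 5.16 TPM in IAA replicates 1 and 2, against 6.38 and 6.11 TPM in control replicates 1 and 2. SLC1A1, a glutamate and cysteine importer, was on the other side, with 29.3 and 25.3 TPM in the IAA libraries against 22.7 and 22.9 TPM in the controls. Their log2 fold changes were -0.34 and 0.25 (limma adjusted p = 0.999 each), and the difference between the 10 genes and this list was not tested.

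The remaining genes named from that list were closer to 0. SLC36A1, a lysosomal exporter of small amino acids, had a log2 fold change of -0.18 and SLC38A10 of -0.06. SLC36A4 had 0.09 and the cationic transporter SLC7A2 had 0.01.

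**Figure D4:**
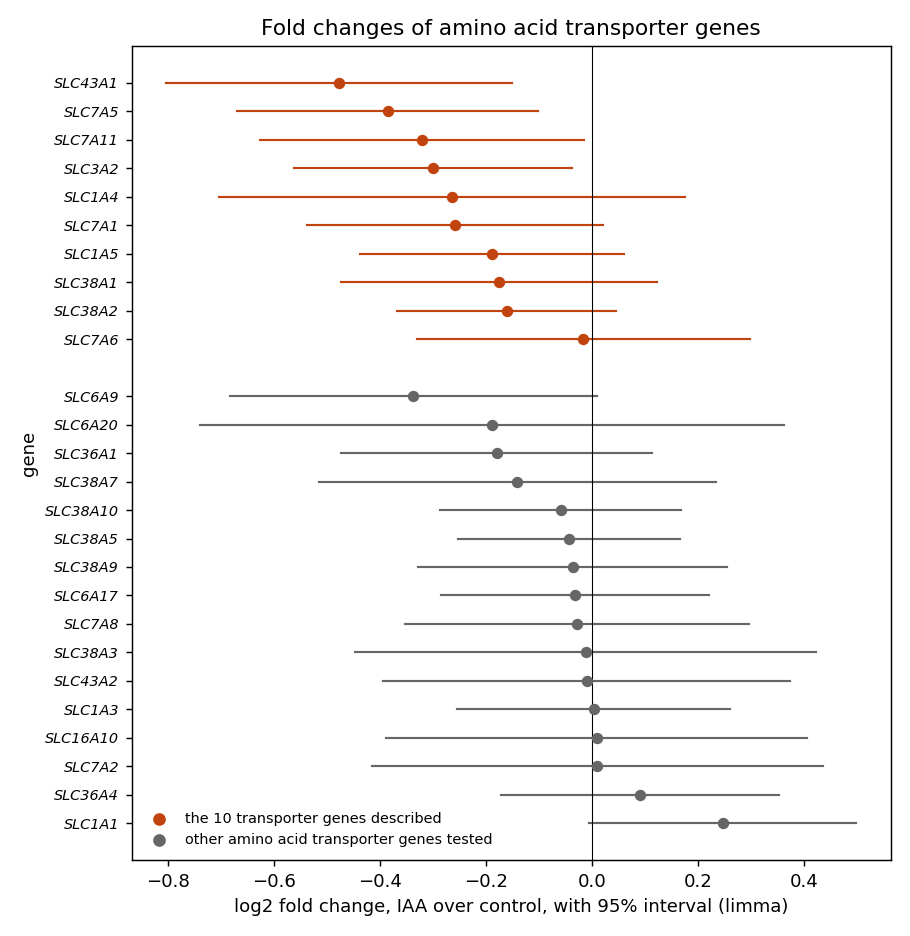
log2 fold changes of IAA over control with 95% intervals from limma for the 10 transporter genes (orange) and for the 16 other amino acid transporter genes that were tested (grey), each sorted by value. The intervals of SLC43A1, SLC7A5, SLC7A11 and SLC3A2 end below 0, and the intervals of all 16 others include 0.

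Among 4 transcription factors known to act on transporter genes (ATF4, CEBPB, MYC and NFE2L2), 0 were called in either direction, and at an unadjusted p under 0.05 NFE2L2 was higher and MYC lower, against 1.54% and 2.61% of all genes tested. ATF4 had 627 and 678 TPM in IAA replicates 1 and 2, against 725 and 719 TPM in control replicates 1 and 2. CEBPB, a partner of ATF4 on DNA, had 117 and 155 TPM in the IAA libraries, against 163 and 160.4 TPM in the controls. Both genes lay below both controls, with log2 fold changes of -0.15 and -0.26.

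MYC, a known regulator of SLC7A5 and SLC1A5, had 206 and 219 TPM in IAA replicates 1 and 2, against 243 and 239 TPM in control replicates 1 and 2, a log2 fold change of -0.18 without overlap. NFE2L2, whose protein NRF2 induces SLC7A11, had 75.3 and 76.7 TPM in the IAA libraries, against 64.7 and 65.3 TPM in the controls. It was the only 1 of these 4 above both controls, with a log2 fold change of 0.22. An mRNA level does not show the activity of a factor. The part of these 4 factors in the transporter values was not tested.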

How the data were processed

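The authors deposited a table of TPM values per gene and library, per the file headers, with gene lengths. Each column sums to 1000000. Tools listed in the submitters' processing notes are featureCounts 1.5.2 and DESeq2 1.20.0. GRCh38.p12 and hg38 are the builds listed, and no roles are stated. Neither the aligner nor the strand setting is given in the sources used here. Gene IDs, 34826 in all, matched GENCODE release 29 (GRCh38), from which coordinates, exon overlaps and GC content were taken. TPM times length was a whole multiple of a step in 100% of genes in every library (tolerance 0.001), which gave reads. Whether a read or a pair was counted is not given.

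IAA was compared with control by limma 3.58.1 in R 4.3.3 (lmFit, eBayes with a trend, two-sided) on log2(TPM + 1), a scale that understates changes of low genes. Genes reaching 1 TPM in 2 or more libraries entered, 17896 in all, and p-values were adjusted by Benjamini-Hochberg with a threshold of 0.05. All 10 transporter genes passed the filter. Code was tested on simulated data. Replicates are the labels' biological replicate samples.

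Members, lists and alternatives were chosen with earlier results of these data known, and the removal of GC and length trends was added after the values were seen. The genes named were all 10 transporters, 4 regulators (1 further regulator is not reported here), up to 3 in each direction with the smallest p from each further list at a mean of at least 5 TPM, and the 3 protein-coding genes (mean of at least 20 TPM) nearest in profile.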

Additional observations from a re-analysis of the deposited data

How the results depend on the processing

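The median log2 fold change of the 10 genes was negative under all 16 alternatives, from -0.37 to -0.16 over the left-out libraries and from -0.28 to -0.21 otherwise. Leaving out control replicate 2 gave -0.37 and leaving out control replicate 1 gave -0.16. The number of genes called higher was 1 with a mean of at least 5 TPM, 1 by voom and 12 with protein-coding genes alone, where 25 were lower, 1 of them a transporter gene. With any library left out, between 0 and 534 genes were higher and between 0 and 424 lower, and 0 to 3 of the transporters lower. Single genes kept a negative sign in every alternative except SLC7A6, which was 0.000723 with median-of-ratios factors, 0.00586 without the length trend, 0.00783 without the GC and length trends, 0.05 without IAA replicate 2 and 0.12 without control replicate 1, with a range over left-out libraries from -0.15 to 0.12. The cause was not tested. SLC1A4 did not reach a mean of 5 TPM and has no value in that alternative.

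Equal replicate numbers were not taken as pairs, since the labels give no shared day and the correlation over genes of the replicate differences in IAA with those in control was -0.07. With the replicate block the calls stayed at 0 and the median at -0.26, and 6 rather than 4 of the 10 were lower at an unadjusted p under 0.05, where all genes lower by that rule came to 538 rather than 467 of 17896. With 2 libraries a group, differences of the size seen here could not be told from replicate spread for most genes. Counting error was at most 14.5% either way for SLC43A1 (95% exact Poisson).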

Other observations

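Genes that sense amino acids for the GCN2 and mTORC1 pathways had a median log2 fold change near 0 as a list. All 22 were tested and 0 were called. Fold changes were negative for 13 and positive for 9, where 55.5% of all genes tested were negative. The median was -0.02, against -0.02 over all genes. SESN2, a leucine sensor that restrains mTORC1 and is itself induced by ATF4, had 18.9 and 24.0 TPM in IAA replicates 1 and 2, against 31.0 and 28.1 TPM in control replicates 1 and 2. Its log2 fold change was -0.46 (limma adjusted p = 0.981), the lowest of the list, and it was the single member with an unadjusted p under 0.05, against 2.61% of all genes. NPRL2 had -0.12 and LAMTOR5 -0.07, while LAMTOR3, RRAGD and RRAGA had 0.12, 0.10 and 0.07.

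The genes with profiles nearest to the mean of the 10 transporters over the 4 libraries, among 6335 protein-coding genes averaging 20 TPM or more, were UHRF1, MARS and LSS. Their Euclidean distances in centred log2(TPM + 1) were 0.0216, 0.0245 and 0.0379. UHRF1 had 52.8 and 53.6 TPM in IAA replicates 1 and 2, against 67.2 and 58.8 TPM in control replicates 1 and 2. In the same order, MARS had 68.5 and 71.7 TPM, against 89.5 and 78.5 TPM. LSS had 51.1 and 52.1 TPM, against 64.6 and 58.1 TPM. A profile over 4 libraries holds few degrees of freedom, and the measure carries no test.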
